A study of Homo sapiens with 14 samples.

Results

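The core and linker histone genes were chosen by name alone: every symbol of the HIST1 to HIST4 clusters, in the older or the newer naming, together with H1F0, H1FX, H2AFX, H2AFZ, H3F3A and H3F3B. The LNCaP table held 84 of them among 44591 genes and the DU145 table held 77 among 24199 features. Of the 84 genes, 66 were replication-dependent histone genes (5 H1, 16 H2A, 17 H2B, 13 H3 and 15 H4 genes), 6 were variant genes, 4 were cluster genes known from testis (HIST1H1T, HIST1H2AA, HIST1H2BA and HIST3H3) and 8 were pseudogenes, of which the DU145 table listed 1.

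LNCaP is an androgen-responsive human prostate adenocarcinoma line and DU145 is an androgen-independent human prostate carcinoma line. The RNA-seq compared 1 library of parental LNCaP cells (control) with 1 library of LNCaP cells kept in 20 µM enzalutamide, an antiandrogen drug, and labelled as resistant to it (LNCaP-ENZ). It also compared 3 libraries of DU145 cells with a control shRNA (shCON) with 3 libraries of DU145 cells with an shRNA against the transcription factor PAX6 (shPAX6). The knockdown lines were stable lines made by lentiviral infection. The labels do not give the hairpin used or say that the 3 libraries came from separate cultures, so p-values measure only the spread between these libraries, which may be technical. Fewer cells in S phase and less histone RNA per cell cannot be told apart in such bulk samples.

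Histones H2A, H2B, H3 and H4 form the protein core of the nucleosome, and the linker histone H1 binds the DNA where it enters and leaves. The replication-dependent genes are transcribed in S phase, when new DNA must be packaged. Their mRNAs typically have no poly-A tail and end just after a stem-loop that is bound by SLBP, the stem-loop binding protein. Variant histones such as H3.3 (H3F3A and H3F3B), H2A.Z (H2AFZ) and H1.0 (H1F0) are made throughout the cell cycle from mRNAs with a poly-A tail, and H2AFX, the gene for the DNA damage histone H2A.X, makes mRNA of both kinds.

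The 3′ stem-loop is shown because it separates the classes by sequence. On GRCh37 a 16-base match to the histone 3′ stem-loop, searched on the gene's own strand, lay within 100 bases after the stop codon in 63 of the 63 replication-dependent genes whose stop codon could be placed, at 23 to 68 bases (median 36), and in 4 of the 4 testis-type genes. It was found in 1 of the 6 variant genes, H2AFX, and in 71 of all 20047 coding genes (0.354%). Among the 63 replication-dependent genes the commonest sequence was shared by 37, and 9 had the form of HIST1H4H. In the lines that follow, each read 5′ to 3′ on the gene's strand, the capitals mark the 6-base arms of the stem and the lower case marks the 4-base loop. The genes are those with the highest levels, those nearest to the test threshold in DU145, and the 1 variant with a stem-loop.
HIST1H3B (chr6:26031825-26031840, minus strand): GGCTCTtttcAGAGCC
HIST1H1B (chr6:27834575-27834590, minus strand): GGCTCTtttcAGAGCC
HIST1H2BC (chr6:26123700-26123715, minus strand): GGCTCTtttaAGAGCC
HIST1H2BK (chr6:27114145-27114160, minus strand): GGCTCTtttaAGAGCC
HIST1H1C (chr6:26055972-26055987, minus strand): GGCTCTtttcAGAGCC
HIST2H2BE (chr1:149857738-149857753, minus strand): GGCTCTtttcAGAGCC
HIST1H4H (chr6:26285359-26285374, minus strand): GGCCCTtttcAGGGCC
H2AFX (chr11:118965608-118965623, minus strand): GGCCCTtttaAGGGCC

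Each of these windows lies in the 3′ UTR of its gene. Of the replication-dependent genes, 52 lie on chromosome 6, 13 on chromosome 1 and 1 on chromosome 12. In the LNCaP table's own gene positions, 59 of the 63 genes with a placed stem-loop ended at most 51 bases past it. The other 4 genes, all encoding H2B, ran on for 1728 bases (HIST2H2BE), 8073 bases (HIST1H2BK), 12747 bases (HIST1H2BD) and 29195 bases (HIST2H2BF).

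The LNCaP libraries held 20468001 counts (control) and 17945722 counts (LNCaP-ENZ), and the DU145 table gives FPKM values, which are scaled to gene length and library size, without counts, so its depth is unknown. PAX6, the targeted gene, was at 0.839, 1.23 and 1.57 FPKM in shCON replicates 1 to 3, and every shPAX6 library was lower, at 0.0153, 0.274 and 0.0778 FPKM. The luminal markers KLK2 and TMPRSS2 were 2-fold or more lower in LNCaP-ENZ. In DU145 KLK2 and TMPRSS2 were listed at 0 in all 6 libraries, while the epithelial keratin KRT8 was 963 ± 40.0 FPKM (SD, n = 3) in shCON. Of the leukocyte markers, PTPRC and CD3E were at 0 in DU145. CD79A was at 0.997 ± 0.277 FPKM in DU145 shCON and 0.422 ± 0.233 FPKM in shPAX6 (SD, n = 3). In LNCaP PTPRC had 23 and 28 counts, CD3E had 15 and 19 counts and CD79A had none. Of the fibroblast markers, COL3A1 and DCN had no counts in LNCaP and COL1A1 had 456 and 231 counts. Of the endothelial markers, PECAM1 had 3 counts in each LNCaP library and VWF had 345 in the control and 27 in LNCaP-ENZ. The library shPAX6 replicate 1 stood apart: its FPKM values summed to 570790, against 448901 to 503696 in the other 5 libraries.

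The first comparison was between the classes within each library, on the per-length scale (TPM in LNCaP, FPKM in DU145). In LNCaP the 66 replication-dependent genes summed to 13608 TPM in the control and 12508 TPM in LNCaP-ENZ, and the 6 variants to 638 and 525 TPM, so the replication-dependent sum was 21.3 times the variant sum in the control and 23.8 times in LNCaP-ENZ. In DU145 the same 66 genes summed to 1036, 1091 and 1052 FPKM in shCON and to 1480, 967 and 1208 FPKM in shPAX6. The DU145 variants summed to 1071, 1075 and 960 FPKM in shCON and to 1144, 949 and 1124 FPKM in shPAX6. The ratio of the sums was therefore near 1 in DU145, at 1.03 ± 0.0649 (SD, n = 3) in shCON and 1.13 ± 0.145 in shPAX6, and lay between 0.967 and 1.29 in the 6 libraries. The tables were made and normalised separately, so the cell line and the way each table was made cannot be told apart, and no test was run across them.

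**Figure D1:**
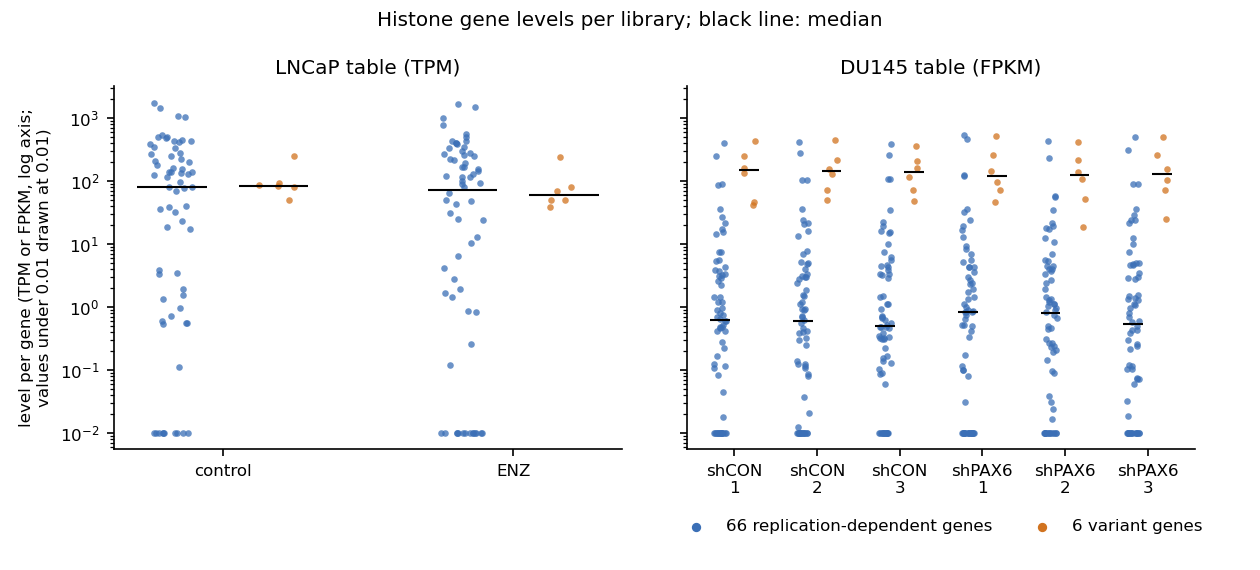
Per-length level of each replication-dependent gene (blue) and variant gene (orange) in each library, in TPM for LNCaP and FPKM for DU145 on a log axis, with the median as a black line. In LNCaP the medians of the classes lie close together (80.6 and 84.2 TPM in the control), whereas in the DU145 libraries the replication-dependent medians are 0.501 to 0.838 FPKM and the variant medians 121 to 148 FPKM.

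The median replication-dependent gene was at 80.6 TPM in the control and 72.6 TPM in LNCaP-ENZ, beside variant medians of 84.2 and 60.1 TPM. The medians of the classes were thus close, and the replication-dependent class had more genes and the most abundant ones. The 5 highest genes in the control, HIST1H3B, HIST1H1B, HIST1H2BC, HIST1H1C and HIST2H2AC, held 42.8% of the class sum. HIST1H3B, one of the H3 genes, was at 1762 and 1647 TPM and ranked 20 and 24 among the 19233 coding genes. HIST1H1B, the linker histone H1.5 gene, was at 1427 and 1479 TPM. HIST1H2BC, an H2B gene, was at 1067 and 1009 TPM, and HIST1H1C, the H1.2 gene, was at 1037 and 761 TPM. HIST2H2AC, an H2A gene, was at 535 and 399 TPM. All 5 were above every variant in both LNCaP libraries.

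At the other end, 9 of the 66 genes had no count in either LNCaP library, 11 had at most 3 counts in both, and 46 had a mean of at least 1 CPM (counts scaled to the library total). A count of 3 corresponds to 0.147 CPM in the control and 0.167 CPM in LNCaP-ENZ, so genes under this level were not detectable at this depth. Among the genes without a count were the H1 genes HIST1H1A and HIST1H1D, the H2B genes HIST1H2BE, HIST1H2BH and HIST1H2BI, and the H3 gene HIST1H3F.

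DU145 was organised differently. In each library the 5 highest replication-dependent genes held 83.0% to 87.6% of the class sum. HIST1H2BK, an H2B gene, was at 404, 412 and 381 FPKM in shCON and 546, 426 and 505 FPKM in shPAX6. HIST1H1C was at 253, 273 and 257 FPKM in shCON and 471, 229 and 307 FPKM in shPAX6. HIST2H2AA3 and HIST2H2AA4, H2A genes of the chromosome 1 cluster, were at 101 ± 10.1 and 98.8 ± 10.3 FPKM (SD, n = 3) in shCON. HIST1H2AC, an H2A gene, was at 35.6 ± 1.29 FPKM in shCON. Averaged over the 6 libraries, 39 of the 66 genes were under 1 FPKM and 11 were at 10 FPKM or more, and 9 were listed at 0 in every library.

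HIST2H2AA3 and HIST2H2AA4 are near-identical copies, so their separate values are uncertain. All 100-base words of the HIST2H2AA4 sequence also occurred in another gene, as did all those of HIST2H4A, HIST2H4B and HIST2H3A, and more than 50% did so in 13 of the 61 replication-dependent genes for which this could be computed. Reads from such copies can be split, shared or dropped by the counting. In LNCaP these copies were low, with 10 and 8 counts for HIST2H2AA3, 14 and 14 counts for HIST2H2AA4, 12 and 12 counts for HIST2H4A and 15 and 14 counts for HIST2H4B. The part of the counting in the gap between the tables was not tested.

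Set side by side over the 66 genes, the mean LNCaP level and the mean DU145 level had a Spearman rho of 0.43, given as a description, since the points share their libraries and the genes are not independent. In LNCaP 43 genes were at 10 TPM or more, and of these 24 were under 1 FPKM in DU145 and 13 between 1 and 10 FPKM. Only 6 of the 66 genes were at 10 or more in both tables, namely HIST1H1C, HIST1H2AC, HIST1H2BC, HIST1H2BD, HIST1H2BK and HIST2H2BE. Of the 10 highest genes of each table, 2 were shared, HIST1H1C and HIST2H2BE. Of the 2 genes highest in LNCaP, HIST1H1B was at 0.428 to 1.44 FPKM in the 6 DU145 libraries and HIST1H3B at 2.41 to 4.57 FPKM.

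Of the 4 H2B genes whose table entries ran far past the stem-loop, HIST1H2BK, HIST1H2BD and HIST2H2BE were at 446, 16.9 and 12.9 FPKM in DU145 (mean of 6 libraries) and HIST2H2BF was at 0.502 FPKM. Their median was 14.9 FPKM, beside 0.728 FPKM for the 59 genes whose entries ended near the stem-loop, of which 8 were at 10 FPKM or more. In LNCaP the medians of the same groups were 386 and 57.9 TPM. With 4 genes in the longer group this is a description only.

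Another 5 genes were at 10 FPKM or more in DU145 but under 10 TPM in LNCaP: HIST2H2AA3, HIST2H2AA4, HIST2H4A, HIST2H4B and HIST1H4I. The first 4 are the near-identical copies described above. HIST1H4I, an H4 gene, had 4 and 0 counts in LNCaP, whereas in DU145 it was at 21.2, 20.8 and 19.2 FPKM in shCON and 36.6, 21.6 and 28.6 FPKM in shPAX6. It lies on the plus strand inside the span that the LNCaP table gives to HIST1H2BK on the minus strand. The sources used here do not say that reads were counted by strand, and without strand the reads of overlapping genes cannot be told apart.

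**Figure D2:**
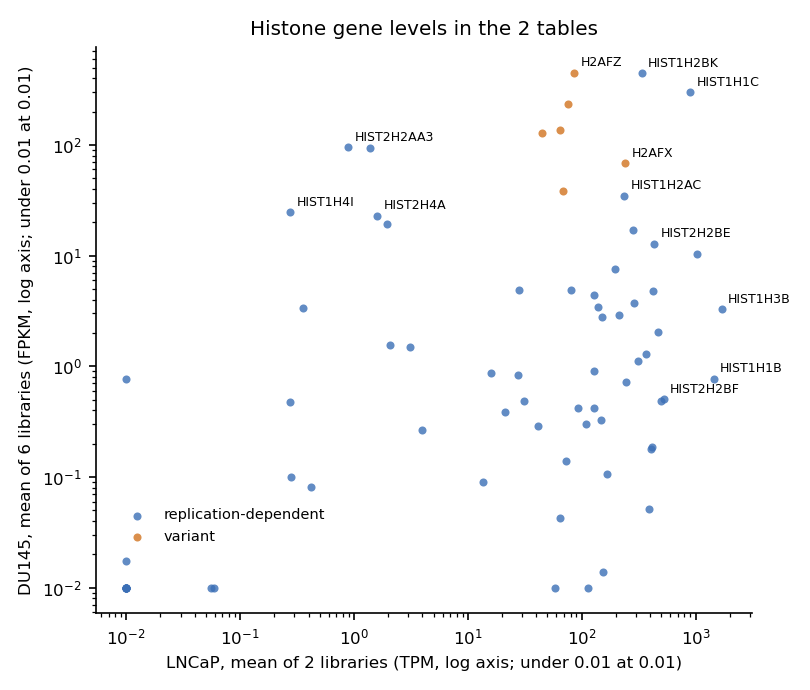
Mean level of each replication-dependent gene (blue) and variant gene (orange) in LNCaP (2 libraries, TPM) and DU145 (6 libraries, FPKM), both on log axes. The 24 genes at 10 TPM or more in LNCaP and under 1 FPKM in DU145 lie at the lower right, with HIST1H1B the farthest right of them, and the variants lie in a narrow range at the upper right.

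RNAs without a poly-A tail were abundant in the LNCaP libraries. The protocol in the labels describes poly-A enrichment, yet RN7SK, RN7SL1, RN7SL2, RPPH1 and RMRP, 5 RNAs of this kind, held 18.1% of the control counts and 19.0% of the LNCaP-ENZ counts. On the TPM scale they took 583766 of 1000000 in the control and 579501 in LNCaP-ENZ. The TPM of every other LNCaP gene is lowered by this share, so cut-offs in TPM and FPKM are not equal between the tables. The DU145 table lists none of these 5 RNAs. Whether this difference has a part in the level of the replication-dependent histones in each table was not tested.

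The order of the variants differed between the tables. H2AFZ was the highest variant in DU145, at 416 ± 51.6 FPKM in shCON (SD, n = 3), followed by H3F3A (223 ± 22.6), H1F0 (160 ± 3.00), H3F3B (126 ± 8.20), H2AFX (63.2 ± 14.5) and H1FX (46.7 ± 4.96). In this order H2AFX and H1FX overlapped, since the lowest H2AFX library (46.5 FPKM) was under the highest H1FX library (50.7 FPKM), and the other neighbours did not overlap. In LNCaP H2AFX was the highest, at 247 and 237 TPM, and the other 5 variants were at 50.7 to 92.4 TPM in the control and 38.6 to 79.1 TPM in LNCaP-ENZ. H2AFX is the variant that carries the stem-loop printed above. For H3F3A, 64.3% of the 100-base words of its transcript also occurred in another gene, so its level is uncertain.

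The second comparison asked what differed in cells that had become resistant to enzalutamide. With 1 library in each group there is no replicate check and no test. Values are counts, the log2 ratio of LNCaP-ENZ over control in CPM, and a 95% Clopper-Pearson interval that covers counting error only. The median log2 ratio over the 14767 genes with a mean of at least 1 CPM was -0.15, and changes are read against it.

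As a class the replication-dependent genes barely differed. They held 169119 counts in the control and 146087 in LNCaP-ENZ, or 0.826% and 0.814% of each library, a log2 ratio of -0.02 (95% interval -0.03 to -0.01). The sign turned to 0.12 with edgeR's TMM factors and to 0.13 with the median expressed gene set to 0. The 6 variants held 20452 and 15233 counts, a log2 ratio of -0.24 (-0.27 to -0.20), which was -0.09 with TMM factors. The intervals of the 2 classes did not overlap, but they cover counting error only and cannot show that the classes differ between the conditions. Against the median of all genes, 3 of the 6 variants were above and 3 below. In TPM the ratios were -0.12 for the replication-dependent genes and -0.28 for the variants.

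Among the 46 replication-dependent genes with at least 1 CPM, 20 were above and 26 below a log2 ratio of 0, with a median of -0.07. Against the median of all genes, 26 were above and 20 below. None of the 46 was higher by 2-fold or more, where 1.84% of all genes were, and 2 of the 46, HIST1H3J and HIST2H3C, were lower by 2-fold or more, where 9.57% of all genes were. The counting interval lay wholly above the median of all genes for 20 of the 46 and wholly below it for 13. Over all 14767 genes, it lay wholly above for 4658 and wholly below for 4616. Since the interval covers counting error only and narrows with higher counts, these numbers do not set the histone genes apart from other genes.

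By family, the summed CPM of H2B and H4 genes was slightly higher in LNCaP-ENZ and that of H1, H2A and H3 genes slightly lower. The log2 ratio was 0.10 (0.08 to 0.12) for H2B, from 62161 to 58445 counts, and 0.10 (0.04 to 0.15) for H4, from 6128 to 5742 counts. It was -0.07 (-0.09 to -0.05) for H1, -0.11 (-0.14 to -0.08) for H2A and -0.15 (-0.17 to -0.13) for H3. The H2B sum was dominated by HIST2H2BE with 19112 and 17360 counts and HIST2H2BF with 10355 and 10935 counts. Against the median of all genes, the H1, H2A and H3 sums were at or above it.

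The genes that were lowest in LNCaP-ENZ included 3 H3 genes. HIST1H3J had 336 counts in the control and 56 in LNCaP-ENZ, a log2 ratio of -2.36 (-2.83 to -1.98). HIST1H3A had 4433 and 2160 counts, a log2 ratio of -0.85 (-0.92 to -0.77), and ranked 88 and 162 among coding genes in TPM. HIST2H3C had 33 and 8 counts, a log2 ratio of -1.65 (-3.18 to -0.71). HIST2H3C shares 99.1% of its 100-base words with another gene, and its near-identical copy HIST2H3A had 34 and 26 counts, so how reads are split between the copies is uncertain.

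The testis-type linker histone gene HIST1H1T was also among the lowest, with 72 and 17 counts, a log2 ratio of -1.79 (-2.75 to -1.12). The other testis-type genes had at most 4 counts in a library. Among the pseudogenes HIST2H2BC was the only one with a mean of at least 1 CPM, with 48 and 36 counts.

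The highest log2 ratios were smaller in size. HIST1H2AL, an H2A gene, had 217 counts in the control and 271 in LNCaP-ENZ, a log2 ratio of 0.51 (0.25 to 0.77). HIST2H2AB, another H2A gene, had 1115 and 1367 counts, a log2 ratio of 0.48 (0.37 to 0.60). HIST1H4E, an H4 gene, had 1022 and 1167 counts, a log2 ratio of 0.38 (0.26 to 0.50), and HIST1H2BO, an H2B gene, had 2050 and 2241 counts, a log2 ratio of 0.32 (0.23 to 0.41). The values of these 4 genes stayed above 0 under every alternative scaling of the libraries. The other alternatives changed the pseudocount or the filter on low counts, which cannot turn the sign of a gene.

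Among the linker genes, HIST1H1B and HIST1H1C went apart. HIST1H1B had 22109 and 21314 counts, a log2 ratio of 0.14 (0.11 to 0.16), and HIST1H1C had 14884 and 10165 counts, a log2 ratio of -0.36 (-0.40 to -0.32). HIST1H1E, the H1.4 gene, had 5418 and 3852 counts, a log2 ratio of -0.30 (-0.36 to -0.24). The intervals of HIST1H1C and HIST1H1E lay below the median of all genes and that of HIST1H1B lay above it. Of the other highest genes, HIST1H3B had a log2 ratio of -0.01 (-0.04 to 0.02), HIST1H2BC of 0.01 (-0.04 to 0.05) and HIST2H2AC of -0.34 (-0.40 to -0.27).

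Of the variants, H1FX, the linker variant H1.10, had 2547 and 1379 counts, a log2 ratio of -0.69 (-0.79 to -0.60). H3F3B had 4432 and 2590 counts, a log2 ratio of -0.58 (-0.66 to -0.52), whereas H3F3A, which encodes the same protein, had 1711 and 1356 counts, a log2 ratio of -0.15 (-0.25 to -0.04). H1F0 had 2316 and 1642 counts, a log2 ratio of -0.31 (-0.40 to -0.21). H2AFZ had 1716 and 1366 counts, a log2 ratio of -0.14 (-0.24 to -0.04), and H2AFX had 7730 and 6900 counts, a log2 ratio of 0.03 (-0.02 to 0.07). The values of H1FX, H3F3B and H1F0 stayed below 0 under every alternative scaling of the libraries. Those of H2AFZ and H3F3A turned to just above 0 with TMM factors or with the median gene set to 0. The value of H2AFX turned below 0 on the TPM scale.

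**Figure D3:**
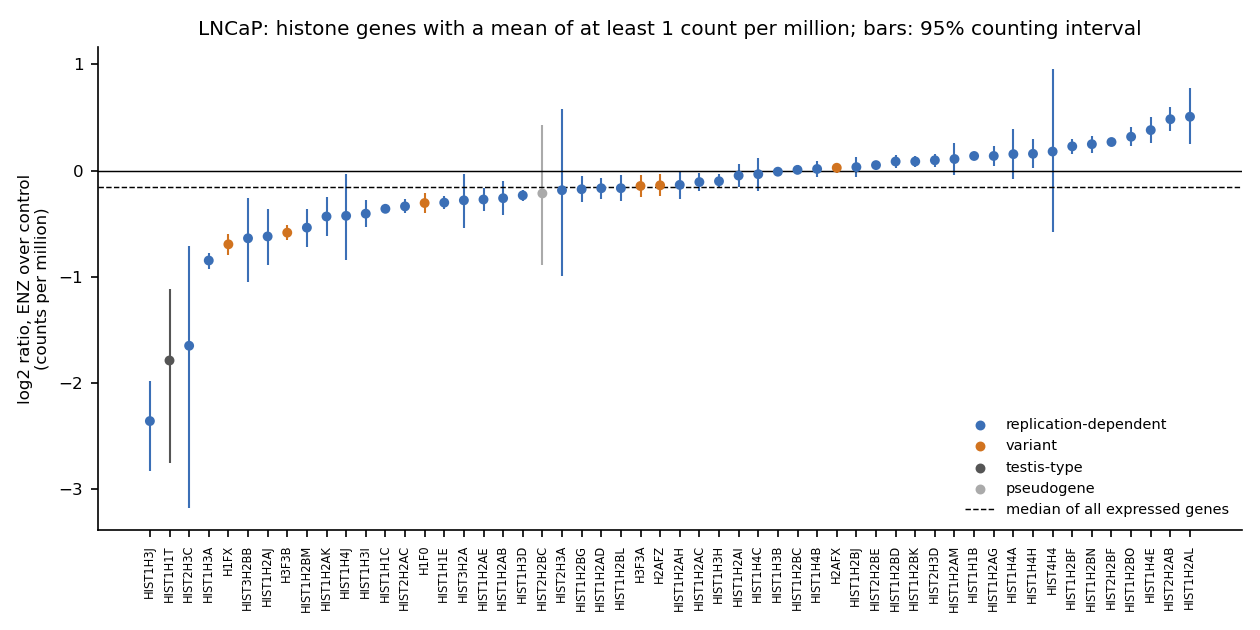
Log2 ratio of LNCaP-ENZ over control in CPM for each histone gene with a mean of at least 1 CPM, with its 95% counting interval, sorted by ratio; the dashed line is the median of all expressed genes (-0.15). Most replication-dependent genes lie between -0.5 and 0.5, and HIST1H3J, HIST1H1T and HIST2H3C lie below -1.

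Genes that work with histones in S phase were read from fixed lists. Of 20 DNA replication genes, 14 were higher and 6 lower in LNCaP-ENZ, with a median log2 ratio of 0.62, against -0.07 for the replication-dependent histones and -0.15 for all genes. MCM5, a subunit of the replicative helicase, had 2044 and 3740 counts, a log2 ratio of 1.06 (0.98 to 1.14). CDC6, which loads that helicase, had 1133 and 1998 counts, a log2 ratio of 1.01 (0.90 to 1.11). At the other end PRIM1, a primase subunit, had 670 and 407 counts, a log2 ratio of -0.53 (-0.71 to -0.35). The histone genes and the replication genes thus did not have the same median, and no test of that difference was possible with 1 library in each group.

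Of 18 genes for histone transcription and 3′ end processing, 10 were higher and 8 lower, with a median of 0.11. NPAT, the coactivator of replication-dependent histone genes, had 700 and 263 counts, a log2 ratio of -1.22 (-1.43 to -1.02). SLBP, which binds the stem-loop, had 992 and 1004 counts, a log2 ratio of 0.21 (0.08 to 0.34). Of 21 histone chaperone genes, 10 were higher and 11 lower, with a median of -0.04. The lowest were NAP1L1 (9004 and 2736 counts), ATRX (723 and 243 counts) and ANP32E (878 and 341 counts), with log2 ratios of -1.53, -1.38 and -1.17, and the highest was TONSL (785 and 1395 counts), with a log2 ratio of 1.02. Of 13 variant genes outside the naming rule, 5 had at least 1 CPM, and their median log2 ratio was -0.11.

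The third comparison asked whether histone genes differed when PAX6 was knocked down in DU145. No histone gene passed the test: 40 of the 77 genes averaged 0.5 FPKM or more and were tested, and 0 had an adjusted p under 0.05 in limma, where 1.20% of all 13574 features tested did. At an unadjusted p under 0.05 there were 9 of the 40, 5 higher and 4 lower in shPAX6, where 18.3% of all features were. The genes nearest to the threshold were HIST2H2BE, H1F0 and HIST1H4H. Fold changes are on the scale of log2(FPKM + 0.1), which understates the change of low genes, and are given with their standard error (SE).

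The 34 tested replication-dependent genes had a median log2 fold change of -0.02 (16 above and 18 below 0), and the 6 variants had a median of 0.17. The median of all features tested was -0.12, and 21 of the 34 replication-dependent genes and 4 of the 6 variants lay above it. With median centring of the libraries the medians moved to 0.16 and 0.35, and with quantile normalisation to 0.18 and 0.04. The class sum changed by 0.18 on the log2 scale for the replication-dependent genes and by 0.05 for the variants, both less than the SD between libraries of a group (0.22 and 0.12). The replication-dependent sum of shPAX6 replicate 2 (967 FPKM) was below all 3 shCON libraries and that of replicates 1 and 3 was above them.

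By family, the libraries of the groups separated for H2B alone. H2B genes summed to 452 ± 13.1 FPKM in shCON and 550 ± 61.2 FPKM in shPAX6 (SD, n = 3), without overlap of the libraries. Most of this sum was HIST1H2BK alone, at a mean of 399 FPKM in shCON and 493 FPKM in shPAX6. Of the 10 tested H2B genes, 5 were higher and 5 lower in shPAX6. H1 genes summed to 263 ± 10.4 and 338 ± 124 FPKM, H2A genes to 261 ± 20.3 and 233 ± 62.9 FPKM, H3 genes to 12.3 ± 1.15 and 15.4 ± 2.39 FPKM and H4 genes to 70.9 ± 4.53 and 82.5 ± 10.5 FPKM. The groups overlapped for H1, H2A, H3 and H4.

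Library values overlapped between the groups for 31 of the 40 genes tested. Of the other 9 genes, 6 were higher in every shPAX6 library than in every shCON library, where 6.70% of all features were, and 3 were lower in every one, where 20.0% of all features were. An exact permutation test of 3 against 3 libraries cannot go below 0.1.

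Among the genes with lower values was HIST2H2BE, an H2B gene. It was at 15.3, 16.0 and 15.9 FPKM in shCON and at 9.23, 10.8 and 9.91 FPKM in shPAX6. The groups did not overlap, and the log2 fold change was -0.65 (SE 0.14, adjusted p = 0.0696 in limma). Over the alternatives its adjusted p ranged from 0.0295 to 0.387. HIST1H2AE, an H2A gene, was at 3.87, 4.00 and 4.59 FPKM in shCON and 1.94, 2.69 and 3.43 FPKM in shPAX6, with a log2 fold change of -0.64 (SE 0.24, adjusted p = 0.225). HIST1H2AI, another H2A gene, was at 3.36, 3.13 and 4.31 FPKM in shCON and 0.522, 3.96 and 1.53 FPKM in shPAX6. Replicate 2 of shPAX6 lay within the shCON range and replicates 1 and 3 lay below it, and its log2 fold change was -1.20 (SE 0.61, adjusted p = 0.355). HIST1H4J, an H4 gene that shares 90.7% of its 100-base words, had the fourth lowest value among the tested replication-dependent genes, with a log2 fold change of -0.38 (SE 0.52, adjusted p = 0.759).

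Among the genes with higher values was HIST1H4H, an H4 gene. It was at 3.19, 2.74 and 3.17 FPKM in shCON and at 6.92, 5.36 and 5.00 FPKM in shPAX6. The groups did not overlap, and the log2 fold change was 0.89 (SE 0.20, adjusted p = 0.0781). HIST1H2BC was at 7.56, 6.91 and 10.0 FPKM in shCON and at 12.9, 12.4 and 12.6 FPKM in shPAX6, with a log2 fold change of 0.64 (SE 0.18, adjusted p = 0.122). HIST1H3A, an H3 gene, had the largest fold change, 1.32 (SE 0.50, adjusted p = 0.226), but was low and scattered, at 0.954, 0.632 and 0.383 FPKM in shCON and 3.00, 1.93 and 0.812 FPKM in shPAX6. HIST1H4I, whose values were given above, did not overlap either, with a log2 fold change of 0.47 (SE 0.20, adjusted p = 0.270).

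H2B genes lay in both directions. HIST1H2BD was at 14.5, 13.3 and 15.7 FPKM in shCON and 19.3, 17.2 and 21.4 FPKM in shPAX6, and HIST1H2BK, the most abundant of them, was also higher in all 3 shPAX6 libraries, with a log2 fold change of 0.30 (SE 0.15, adjusted p = 0.341). HIST2H2BE, in contrast, was lower in all 3. HIST1H1C, the only abundant linker gene of the clusters, had a log2 fold change of 0.30 (SE 0.25, adjusted p = 0.598), with shPAX6 replicate 1 far above and replicate 2 below the shCON libraries. HIST2H2AA3 and HIST2H2AA4 had log2 fold changes of -0.22 and -0.23 (SE 0.26 and 0.27), and HIST1H2AC of -0.07 (SE 0.12).

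**Figure D4:**
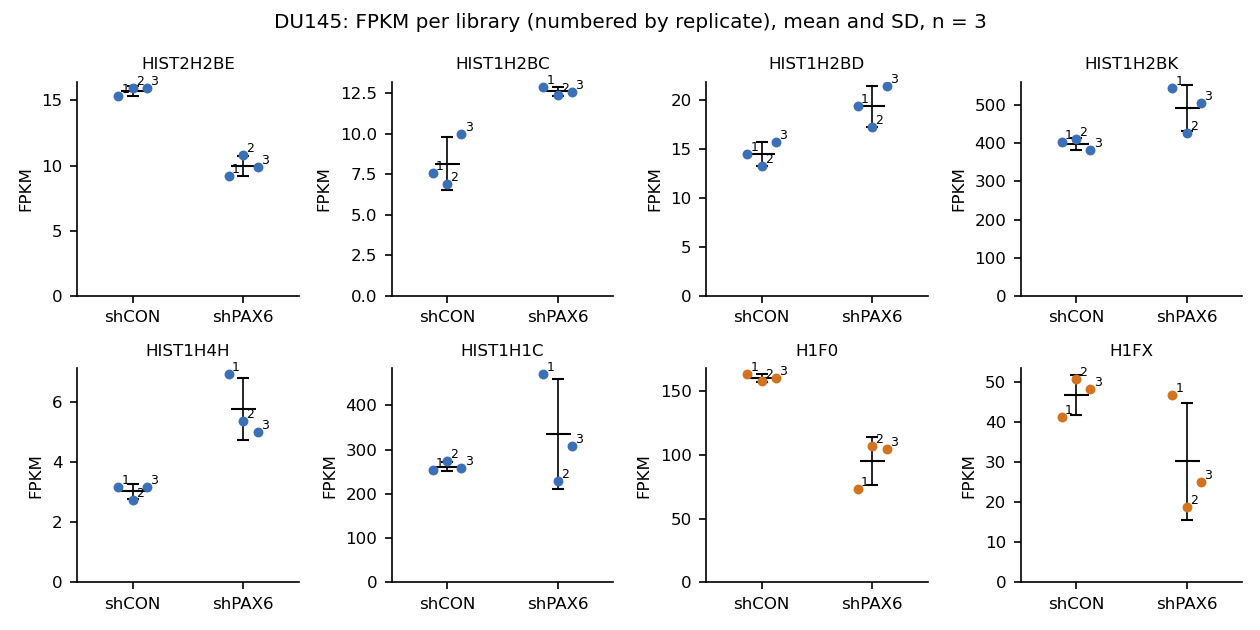
FPKM in each DU145 library, numbered by replicate, with the mean and SD (n = 3), for 6 replication-dependent genes (blue) and 2 variants (orange). HIST2H2BE and H1F0 are lower in all 3 shPAX6 libraries, HIST1H2BC, HIST1H2BD, HIST1H2BK and HIST1H4H are higher in all 3, and HIST1H1C and H1FX overlap.

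Of the variants, the linker variant H1F0 had the smallest adjusted p. It was at 163, 157 and 160 FPKM in shCON and at 73.0, 107 and 105 FPKM in shPAX6. The groups were far apart, and the log2 fold change was -0.78 (SE 0.17, adjusted p = 0.0777). H1FX, the other linker variant, was at 41.2, 50.7 and 48.2 FPKM in shCON and 46.7, 18.9 and 25.0 FPKM in shPAX6. Its shPAX6 replicate 1 lay within the shCON range and the other two lay well below it, and the log2 fold change was -0.73 (SE 0.31, adjusted p = 0.270).

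The 4 core variants of the naming rule lay on the other side of 0. Of the 5 tested variants outside the rule, 1 was higher and 4 were lower in shPAX6, where 8542 of all 13574 features tested were lower. H3F3B was at 132, 130 and 117 FPKM in shCON and 145, 141 and 154 FPKM in shPAX6, with no overlap and a log2 fold change of 0.22 (SE 0.12, adjusted p = 0.398). H2AFZ had a log2 fold change of 0.21 (SE 0.17, adjusted p = 0.564), H2AFX of 0.21 (SE 0.26, adjusted p = 0.742) and H3F3A of 0.14 (SE 0.14, adjusted p = 0.675), and their libraries overlapped. H1F0 and H1FX were also lower in LNCaP-ENZ, with the log2 ratios given above. There 5 of the 6 variants were lower, and so were 9196 of the 14767 genes with a mean of at least 1 CPM. Lower values were thus the commoner outcome in both comparisons, and the shared direction does not set these 2 genes apart. The 2 comparisons share no libraries but concern different lines and treatments.

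**Figure D5:**
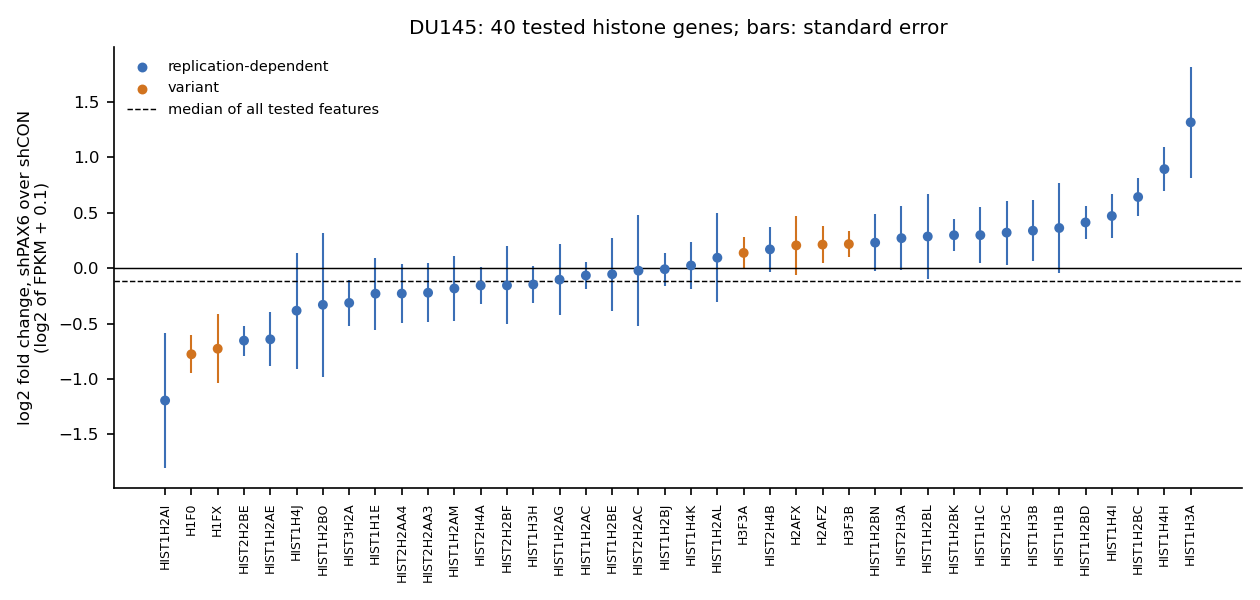
Log2 fold change of shPAX6 over shCON with its standard error for the 40 tested histone genes, sorted by value; the dashed line is the median of all tested features (-0.12). No gene has an adjusted p under 0.05, and the bars of most genes reach or cross 0.

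Whether any histone gene was called depended on which library was left out. Without shPAX6 replicate 1, limma called 4 histone genes (H1F0, H1FX and HIST2H2BE lower and HIST1H4H higher), where 6.78% of all features were called. Without shPAX6 replicate 2, it called 5 (H1F0, HIST2H2BE and HIST1H2AI lower and HIST1H4H and HIST1H4I higher), where 6.63% of all features were called. Without any other library it called 0 histone genes. Few of all features were then called: 0 without shCON replicate 1 or 3, 5 without shCON replicate 2 and 10 without shPAX6 replicate 3.

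The genes around the histones did not pass the test either. Among the 18 genes for histone transcription and 3′ end processing, the 21 chaperone genes, the 20 DNA replication genes and the 5 tested variants outside the naming rule, 0 had an adjusted p under 0.05 in limma. Of all 13574 features tested only 1.20% did, so a count of 0 in lists this short does not set these genes apart. Their median log2 fold changes were -0.14, -0.18, -0.02 and -0.41, and at an unadjusted p under 0.05 there were 2 of 18, 6 of 21, 4 of 20 and 2 of 5 genes, where 18.3% of all features were. SLBP was at 60.1 ± 3.78 FPKM in shCON and 60.3 ± 3.29 FPKM in shPAX6. The chaperone with the smallest adjusted p was NAP1L4, a nucleosome assembly protein, at 54.9 ± 4.04 and 35.1 ± 1.11 FPKM (log2 fold change -0.64, SE 0.12, adjusted p = 0.0559). CHAF1A, the large subunit of the chromatin assembly factor that deposits H3 and H4 behind the replication fork, was at 31.9 ± 0.970 and 21.6 ± 1.85 FPKM (adjusted p = 0.0810). The macroH2A genes H2AFY and H2AFY2 were at 113 ± 6.05 and 40.7 ± 3.13 FPKM in shCON and 76.9 ± 8.58 and 27.2 ± 2.54 FPKM in shPAX6 (adjusted p = 0.0923 and 0.0875).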

How the data were processed

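Per the labels, the RNA-seq libraries were poly-A enriched. The study's methods name HISAT2, GRCh37 and StringTie; the gene counter is not given in the sources used here. For LNCaP the authors deposited raw counts and TPM per gene, which are the counts over the listed gene length. For DU145 they deposited values read here as FPKM, since the file names no unit. ATAC-seq samples were not analysed here.

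LNCaP counts were scaled to CPM; ratios used a pseudocount of 0.1 CPM. DU145 was tested with limma 3.58.1 (R 4.3.3, empirical Bayes with trend) on log2(FPKM + 0.1) over features averaging 0.5 FPKM or more. P-values were adjusted by Benjamini and Hochberg's method, and genes were called under 0.05. The fit was checked on simulated data with independent noise for each gene. These had no library that stood apart, so the check does not cover shifts of a whole library. DESeq2 was not used, as DU145 has no counts. TMM factors came from edgeR 4.0.16. Gene sequences and stop codons came from GRCh37 and a GENCODE annotation.

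Named genes were all variants, the 4 largest changes each way and the 5 highest genes in each line; other genes in the text were chosen after their values were seen. The members and lists were chosen with earlier results of these data known. Some luminal markers are not reported here.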

Additional observations from a re-analysis of the deposited data

How the results depend on the processing

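In LNCaP the replication-dependent sum (log2 ratio -0.02) turned to 0.12 with edgeR's TMM factors and 0.13 with the median expressed gene set to 0, was -0.12 in TPM, and was -0.0054 when the library total left out the 5 RNAs without a poly-A tail, a setting chosen after seeing the data. Under the first 3 of these settings the variant sum was -0.089, -0.081 and -0.28, and the median of the replication-dependent genes was 0.072, 0.080 and -0.16. The number of them changed 2-fold or more (2) was 1 with a pseudocount of 1 CPM and 6 with no filter on low counts. H2AFZ turned to 0.0070 with TMM and 0.015 with the median gene at 0, and H3F3A to 0.0006 and 0.0087. These scalings differ in what they set equal between the libraries, and no replicate shows which holds.

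In DU145 the count of histone genes called stayed at 0 under the 10 alternatives that kept all libraries and was 0 to 5 when 1 library was left out; over all features, 163 calls became 0 without shCON replicate 1 or 3, 5 without shCON replicate 2, 10 without shPAX6 replicate 3, and 924 and 899 without shPAX6 replicates 1 and 2. The replication-dependent median (-0.02) was 0.18 with quantile normalisation, 0.16 with median centring and -0.049 to 0.11 with 1 library left out. The variant median (0.17) was 0.036, 0.35 and 0.042 to 0.23 under the same settings, and 0.10 with GC correction, with or without the replicate block. The variant sum (0.05) was 0.22 with median centring. With the replicate number as a block, limma called 0 histone genes and 0 of all 13574 features; same-numbered libraries deviated with correlations of -0.17, -0.37 and 0.05, so the numbers were not taken to pair the libraries. LNCaP genes with at most 3 counts were not detectable at this depth.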
